A study of Mus musculus with 14 samples.

Results

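The genes of the cytosolic ribosome were followed in bone marrow cells of mice with and without breast tumours. Members were all gene symbols made of Rpl or Rps and a number, together with Rplp0, Rplp1, Rplp2 and Rpsa. Symbols with -ps, a mark of pseudogenes, and the Rps6k kinases were left out. The rule found 92 of 50600 genes in the bulk table, 86 of 32285 genes in each stromal single-cell table and 0 of 11992 genes in the table of hematopoietic stem and progenitor cells (HSPC). Of the 92, 46 encode core proteins of the large subunit and 31 core proteins of the small subunit. Another 14 are paralogues or retrocopies. Among these, Rps4l, Rpl37rt, Rpl6l, Rps12l1, Rps3a2 and Rps3a3 are annotated as processed pseudogenes although their symbols lack that mark. Rps19bp1, which the symbol rule also takes, encodes a nucleolar binding partner of Rps19 that is no ribosomal protein. The HSPC members were therefore not analysed here, and the HSPC are covered by Fau and by lists of neighbouring pathways.

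Ribosomal proteins of the large (Rpl) and small (Rps) subunit assemble with ribosomal RNA in the nucleolus and are needed in near equal numbers. Many of their mRNAs begin with a terminal oligopyrimidine (TOP) tract, a run of C and T at the first transcribed bases through which mTORC1 and Larp1 tune their translation together. A few members have paralogues, such as Rpl22l1 beside Rpl22, that can take the same place in the ribosome. Free Rpl5 and Rpl11 bind Mdm2 and so stabilise p53. In bone marrow, reduced dosage of single members is known as a cause of anaemia.

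The bulk libraries were made from mouse bone marrow cells labelled as mesenchymal stem cells (MSC), 4 from tumour-free mice (Ctrl) and 4 from tumour-bearing mice titled Py230, the name of a mammary tumour cell line from PyMT mice. The stromal single-cell libraries were 1 from a wild-type (WT) mouse and 1 from a PyMT mouse, and the HSPC libraries were 2 from WT and 2 from PyMT mice. PyMT stands for a transgene that expresses polyoma middle T antigen and gives mammary tumours; the labels name no promoter, strain, age or sex, nor whether libraries were pooled from several mice. The titles of all 4 HSPC libraries carry PyMT, and the genotype label was used to group them. In bulk samples, fewer cells of a type and less RNA per cell cannot be told apart.

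All 9 LepR+ mesenchymal markers, the defining genes of marrow MSC, were detected in the bulk libraries, at a summed 29356 to 32107 CPM (counts scaled to a common library total) in Ctrl and 16775 to 19316 CPM in Py230. Osteolineage markers summed to 2487 to 3503 CPM in Ctrl and 1153 to 3014 in Py230. Fibroblast markers summed to 2143 to 2557 and 2047 to 2646 CPM, and pericyte markers to 434 to 671 and 570 to 775. Erythroid markers summed to 16.4 to 41.8 and 14.4 to 25.4 CPM. Lists that were higher in every Py230 than in every Ctrl library were monocyte-macrophage (46.4 to 58.3 CPM in Ctrl and 65.3 to 105 in Py230), sinusoidal endothelial (35.4 to 52.7 and 58.5 to 115) and megakaryocyte markers (8.29 to 11.03 and 12.2 to 17.6). The part of these marker levels in the bulk results was not tested. Counted reads ranged from 4301375 to 9811251 per library. In the stroma, 2190 of 2508 WT and 3191 of 3563 PyMT cells were kept, with medians of 4176 and 4471 unique molecular identifiers (UMIs). The stromal libraries shared 2 cell barcodes, and the pairs of HSPC libraries shared 8 to 23. All 9 HSPC markers were detected in the HSPC libraries.

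A start sequence was found for 67 of the 92 members in RefSeq (build GRCm38.p6). The longest run of C and T between 10 bases before and 20 bases after the annotated start was 8 bases or more in 35.8% of these members, against 13.0% of all 27025 genes. Where a gene had several annotated starts, the start with the longest run was taken, for members and all genes alike. The shares therefore depend on this choice and on how many starts a gene has. The motif shares and sequences below use the same starts. Among the 57 core members the share was 40.4%, and among 9 paralogues it was 11.1%. CCGGAAG, a motif of the ETS family searched on both strands of the 300 bases around the start, was present in 37.3% of members and 9.05% of all genes. AAGATGG, part of the YY1 motif, was present in 14.9% and 6.48%, and TATAAA in 10.4% and 14.2%. The sequences below cover 40 bases before to 12 bases after the start of members among the lowest in stromal ratio of PyMT over WT, of members with higher ones, and of the pairs Rps27 and Rps27rt and Rpl22 and Rpl22l1. Capitals mark the printed bases of the longest C and T run within that window; in Rpl4 the run goes on upstream of the window, in small letters.
Rpl35a (chr16:33056442-33056493, plus strand): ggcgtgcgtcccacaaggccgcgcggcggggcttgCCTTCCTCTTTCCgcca
Rpl35 (chr2:39005120-39005171, minus strand): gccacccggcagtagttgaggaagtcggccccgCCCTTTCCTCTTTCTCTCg
Rps24 (chr14:24490638-24490689, plus strand): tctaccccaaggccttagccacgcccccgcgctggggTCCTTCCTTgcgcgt
Rps27 (chr3:90213637-90213688, minus strand): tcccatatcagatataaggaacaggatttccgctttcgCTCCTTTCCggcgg
Rps27rt (chr9:114982728-114982779, minus strand): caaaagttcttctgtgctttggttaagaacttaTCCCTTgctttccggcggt
Rpl15 (chr14:18270975-18271026, minus strand): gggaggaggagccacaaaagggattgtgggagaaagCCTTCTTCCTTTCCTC
Rpl4 (chr9:64173347-64173398, plus strand): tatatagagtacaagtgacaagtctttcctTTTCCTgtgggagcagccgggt
Rpl22 (chr4:152324396-152324447, plus strand): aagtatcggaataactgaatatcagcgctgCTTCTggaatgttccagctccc
Rpl22l1 (chr3:28805468-28805519, plus strand): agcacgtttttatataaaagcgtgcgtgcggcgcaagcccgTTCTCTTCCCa
The core members Rpl35a, Rpl35, Rps24 and Rps27, among the lowest ratios of PyMT over WT in clusters 0, 1 and 2, have runs of 13, 18, 9 and 9 bases, and Rpl15, which was among the highest in cluster 0, has one of 17 bases. Rps27rt, a retrocopy of Rps27, has a run of 6 bases. Rpl22l1 has a run of 10 bases. The sequence printed for Rpl22 has one of 5, but it lies wholly upstream of the annotated gene, which begins at chr4:152325742. That run may therefore not be the one of the Rpl22 mRNA, and the pair cannot be compared by it.

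The bulk MSC libraries show whether a Py230 tumour goes with a changed level of these genes. Of 92 members, 87 had enough reads to be tested, and 0 of 87 were called at an adjusted p of 0.05 (edgeR quasi-likelihood test, Benjamini-Hochberg over 16317 genes), against 4.73% of all genes tested, 1.99% higher and 2.74% lower. These all-gene calls, 324 higher and 447 lower, were 147 and 230 without Ctrl 1, 134 and 260 without Ctrl 2, 181 and 276 without Py230 2, and 188 higher without Ctrl 3, while 0 members were called with any 1 library left out. At an unadjusted p of 0.05, edgeR marked 4 of 87 members and 16.2% of all genes. The median log2 change of the members was 0.0032 and that of all genes 0.04, with 46 members above 0 and 41 below. The 95% interval lay inside a 1.5-fold change for 74 of 87 members, against 37.4% of all genes at 1.5-fold, and inside a 2-fold change for 80, against 61.9% of all genes. With DESeq2 and without a filter on low counts 1 member, Rps4l, was called lower in each case. The 5 members not tested were Rps12l1, with 0 reads, and Rpl6l, Rpl10l, Rps3a2 and Rps3a3, with 24, 13, 13 and 7 reads over 8 libraries.

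The 46 core large-subunit members had a median log2 change of 0.03, with 43 intervals inside 1.5-fold, and the 31 core small-subunit members had a median of -0.0016, with 29 inside. Members took 0.695%, 0.577%, 0.602% and 0.476% of reads in Ctrl libraries 1 to 4 and 0.590%, 0.619%, 0.625% and 0.647% in the Py230 libraries. The Ctrl range enclosed the Py230 range, with Ctrl 1 highest and Ctrl 4 lowest of all 8. The SD was 0.0898 in Ctrl and 0.0232 in Py230 (n = 4 each), around means of 0.588% and 0.620%.

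Rps4l, a copy of the small-subunit gene Rps4x that is annotated as a transcribed processed pseudogene, stood lowest by p. Its TMM-scaled level was 20.8, 9.98, 11.99 and 10.5 CPM in Ctrl and 6.25, 6.44, 6.004 and 9.06 CPM in Py230. The groups did not overlap, with Ctrl 1 far above the other Ctrl libraries and Py230 4 just under the lowest of them. The log2 change was -0.96 (SE 0.26), with an adjusted p of 0.0556 by edgeR. Its parent Rps4x had a log2 change of 0.05 (SE 0.14).

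Rpl13a, a large-subunit protein also known for release from the ribosome in inflammation, was at 10.1, 10.1, 9.47 and 8.14 CPM in Ctrl and 12.1, 14.005, 14.1 and 12.5 CPM in Py230. Every Py230 library was above every Ctrl library. The log2 change was 0.48 (SE 0.17), with an adjusted p of 0.163 by edgeR. Rps4l and Rpl13a were the only members of 87 whose groups did not overlap; among all genes 5.36% were apart upwards and 5.61% downwards. Rpl13a shares 35.4% of its exon bases with another gene on its strand, so reads may have been counted for either.

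Rps27l, a paralogue of Rps27 that p53 induces, was at 9.61, 5.99, 6.82 and 3.92 CPM in Ctrl and 4.31, 3.72, 2.95 and 5.21 CPM in Py230. The groups overlapped, and the log2 change of -0.73 (SE 0.32) had an adjusted p of 0.285 by edgeR. Rpl4, a large-subunit core protein, was at 194, 158, 166 and 125 CPM in Ctrl and 177, 185, 205 and 206 CPM in Py230. Its groups overlapped too, with a log2 change of 0.27 (SE 0.12) and an adjusted p of 0.306 by edgeR. Rps10, at 0.31 (SE 0.15), and Rpl41, at -0.24 (SE 0.15), completed the 3 members with the smallest p in each direction.

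**Figure D1:**
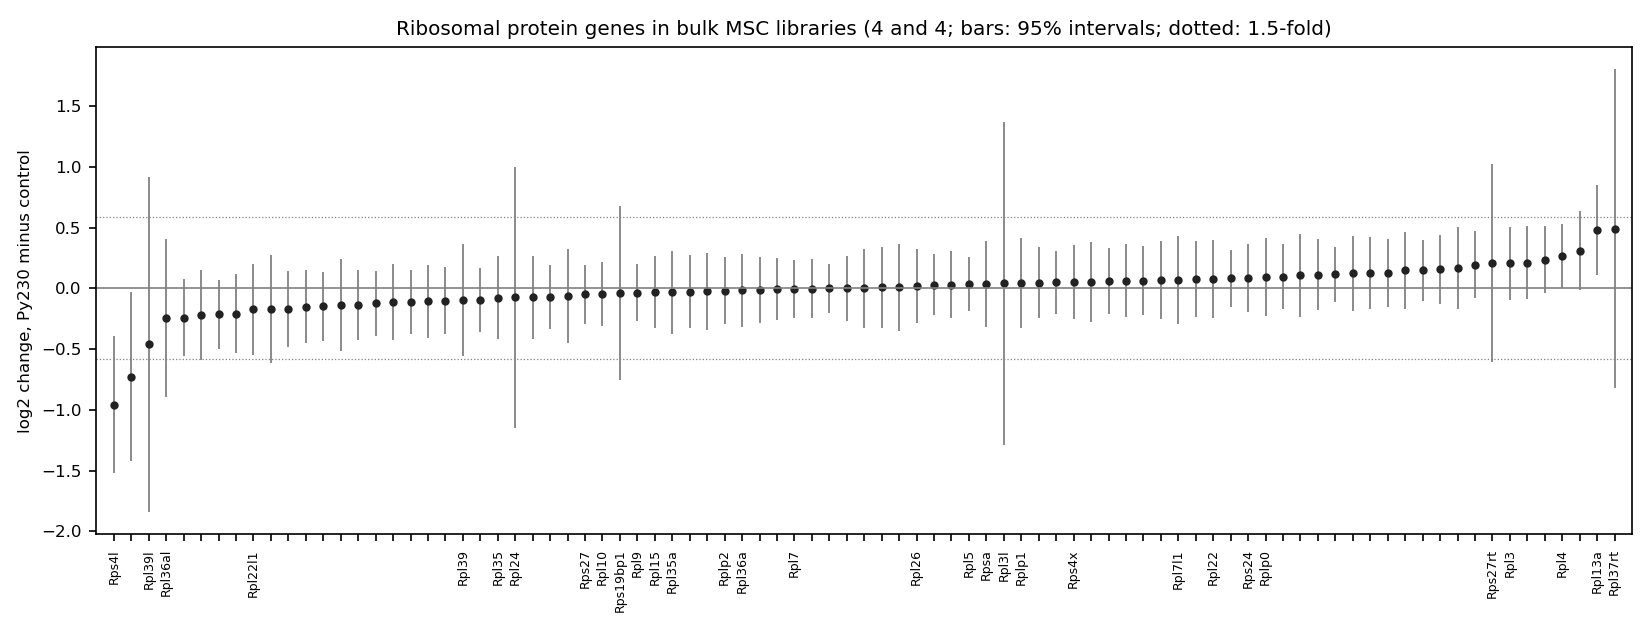
Log2 change between Py230 and Ctrl bulk MSC libraries (4 each) for the 87 members tested, sorted, with 95% intervals as bars and a selection of members labelled. Most points lie near 0 and 74 of 87 intervals stay between the dotted lines at 1.5-fold. Rpl39l, Rpl3l, Rpl37rt and Rpl24, all at low levels, have the widest bars.

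The stalk proteins Rplp0, Rplp1 and Rplp2, which recruit elongation factors, had log2 changes of 0.09, 0.05 and -0.02. Rpsa, the laminin-receptor protein of the small subunit, was at 0.04, and the core proteins Rpl3, Rpl7, Rpl9 and Rpl10 were at 0.21, -0.01, -0.03 and -0.04. Of the paralogue pairs, Rpl22 was at 0.08 and Rpl22l1 at -0.17, Rpl36a at -0.02 and Rpl36al at -0.25, and Rpl39 at -0.10 and Rpl39l at -0.46. None of these had an unadjusted p under 0.05 by edgeR, and the signs of Rplp1, Rplp2, Rpsa, Rpl7, Rpl9, Rpl10 and Rpl36a depended on the scaling or the low-count filter. Rps27 was at -0.05, Rps27rt at 0.21, Rpl7l1 at 0.07, Rpl3l at 0.04 and Rps19bp1 at -0.04. Per length, mean levels over 8 libraries ranged from 217 CPM per kb for Rpl26 to 1.13 for Rpl3l, a muscle paralogue. The core member Rpl24 stood low at 3.44 CPM per kb; 47.0% of its exon bases are shared with another gene on the same strand.

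The neighbouring pathways were read against the same 4.73% of all genes. In the list of TOP-mRNA translation genes outside the rule, which includes Fau, 0 of 20 were called (median log2 change -0.01), and of 77 mitochondrial ribosomal protein genes, Mrpl38 (-1.06, adjusted p 0.00227) and Mrpl27 (-1.09, adjusted p 0.0441) fell by edgeR. Of 30 ribosome biogenesis genes, the rRNA methyltransferase gene Nop2 rose (0.84, adjusted p 0.00113) and Nop58, of the box C/D particle, fell (-0.80, adjusted p 0.00982) by edgeR. Of 16 mTORC1 and Myc genes, the mTORC1 inhibitors Ddit4 (1.09, adjusted p 0.00458) and Tsc1 (0.40, adjusted p 0.0234) rose and the Myc antagonist Mxd4 fell (-0.57, adjusted p 0.00512) by edgeR. Of 8 p53 genes, Cdkn1a, the cell cycle inhibitor, rose (0.85, adjusted p 0.00161 by edgeR). Immediate-early and dissociation stress genes took 3.25% to 3.31% of reads in Ctrl and 3.39% to 3.64% in Py230, groups that did not overlap; their part in these results was not tested.

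The stromal libraries give the same genes by cell type. The authors' 6 clusters were checked against marker lists: cluster 0 was led by Hp, Adipoq and Esm1 (LepR+ mesenchymal-like), cluster 1 by Fmod, Chad and Prg4 (tendon- and cartilage-like), and cluster 2 by Pi16, Ccl11 and Dpt (fibroblast-like). Cluster 3 held Stab2 and Flt4 (sinusoidal endothelial-like), cluster 4 Cd36, Podxl and Flt1 (endothelial-like) and cluster 5 Bglap and Bglap2 (osteolineage-like). The whole sinusoidal list did not separate clusters 3 and 4. It summed to 5406 CPM in WT and 6158 in PyMT in cluster 3, and to 6257 and 5733 in cluster 4, where Stab2 was at 0. Cluster 3 also held part of the pericyte list, at a summed 1387 CPM in WT and 1809 in PyMT, against at most 333 in the other clusters. Of the 7 pericyte markers, 4 were detected in cluster 3 of WT, with Rgs5, Myh11 and Cspg4 at 0. In PyMT 5 were detected there, with Acta2 and Cspg4 at 0. With 1 library per genotype there is no replicate and no test, so all differences between WT and PyMT compare these libraries. Intervals are 95% exact counting intervals and cover counting error only.

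Ribosomal protein genes took a smaller share of UMIs in LepR+ mesenchymal-like cells than in the fibroblast-like and tendon-like clusters. In the WT library the share was 5.01% in cluster 0 (exact interval 4.99 to 5.03), 9.48% in cluster 1 and 10.5% in cluster 2. The smaller clusters 3, 4 and 5 (55, 95 and 63 WT cells) stood at 7.19%, 4.04% and 10.9%. The order was the same in the PyMT library, at 4.199% (4.19 to 4.21), 7.70%, 8.27%, 5.37%, 3.24% and 8.52%. The PyMT share was thus below the WT share in each of the 6 clusters. Thinned to 1500 UMIs per cell, the 3 largest clusters gave 4.73%, 9.61% and 10.4% in WT and 4.05%, 8.13% and 8.50% in PyMT. Cells spread widely within a cluster: in cluster 0 the 5th to 95th percentile of cells ran from 0.694% to 8.84% in WT and from 0.899% to 7.12% in PyMT.

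**Figure D2:**
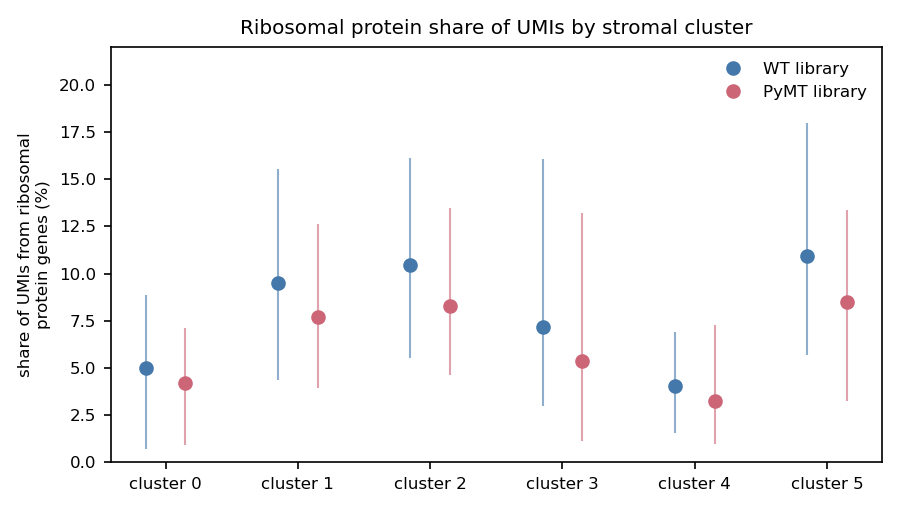
Share of UMIs from the 86 members in each of the authors' 6 stromal clusters; points are the share of all UMIs of a library's kept cells and bars the 5th to 95th percentile of single cells. The PyMT point is below the WT point in every cluster, and clusters 0 and 4 are lowest.

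The lower share of cluster 0 ran through almost all members. In WT, 82 of 84 members with 20 or more UMIs were lower in cluster 0 than in cluster 2, with a median log2 ratio of -1.06, against 0.04 for all genes. In PyMT 81 of 84 were lower, with a median of -0.96 against 0.11. The exceptions were the paralogues Rpl22l1 and Rpl39l in both libraries and Rps19bp1 in PyMT. Rpl39l, a copy of Rpl39 known from testis, was at 43.5 CPM in cluster 0 and 3.34 CPM in cluster 2 of WT, and at 42.3 and 7.23 CPM in PyMT. Cluster 2 had the lower level at a higher median depth, 5655 UMIs against 3591 in WT. Between clusters 1 and 2 the members differed little, with medians of -0.12 in WT and -0.11 in PyMT.

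Within cluster 0, cells poor in ribosomal protein mRNA also differed in other measures. In the 25% of WT cells lowest in member share, Malat1 and Neat1, nuclear noncoding RNAs, took a median 10.6% of UMIs, against 4.68% in the highest 25%. In PyMT these medians were 8.27% and 4.04%. Mitochondrial UMIs took 6.46% and 4.96% in WT and 4.83% and 4.48% in PyMT. The lowest 25% also had fewer UMIs per cell, 2297 against 4176 in WT and 3237 against 4561 in PyMT. Immediate-early and dissociation stress genes took 3.58% in the lowest and 1.70% in the highest 25% in WT, and 5.93% and 3.69% in PyMT. UMIs did not run the same way everywhere: in PyMT the lowest 25% had more, 5174 against 3781 in cluster 1 and 5305 against 4885 in cluster 2. Nor did the stress genes. In cluster 1 they took 0.63% in the lowest and 0.73% in the highest 25% in WT, and 1.97% and 1.92% in PyMT. In cluster 2 they took 0.95% and 1.05% in WT, and 1.80% and 2.60% in PyMT. In cluster 2 the same sets of cells stood closer in Malat1 and Neat1, at 4.86% against 3.91% in WT and 4.22% against 3.36% in PyMT. Shares within a cell sum to a fixed total, so these measures are not independent of the member share.

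Between genotypes, most members were lower in the PyMT library in each of the 3 clusters with 100 or more cells per library. In cluster 0 the median log2 ratio of 84 members was -0.24, against 0.08 for all genes. Past a ratio of 5 to 4, the size used here for naming a difference, 26 members were lower and 0 higher, where 16.6% of all genes were lower and 26.4% higher. In cluster 1 the median was -0.26 against 0.16, with 32 members lower and 1 higher, where 14.1% of all genes were lower and 35.5% higher. In cluster 2 it was -0.32 against 0.08, with 40 lower and 1 higher, where 15.8% of all genes were lower and 27.4% higher. Averaging the CPM of single cells in place of summing UMIs, 16 members were lower in cluster 0. The 84 members left out Rpl3l, with 1 and 3 UMIs in cluster 0, and Rpl10l, with 0. The medians of large and small subunit were -0.23 and -0.27 in cluster 0, both -0.26 in cluster 1, and -0.28 and -0.34 in cluster 2.

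Rpl35a, Rps24, Rpl35 and Rps27 stood among the lowest members in each of the 3 clusters. Rpl35a, a large-subunit protein mutated in Diamond-Blackfan anaemia, was at 964 CPM in WT and 583 CPM in PyMT in cluster 0, a log2 ratio of -0.73 (-0.79 to -0.67). It stood at -0.70 in cluster 1 and -0.69 in cluster 2. Rps24, another Diamond-Blackfan gene, was at 1249 and 814 CPM in cluster 0 (-0.62, interval -0.67 to -0.57), at -0.68 in cluster 1 and -0.75 in cluster 2. Rpl35 was at -0.68, -0.66 and -0.62 and Rps27 at -0.60, -0.64 and -0.65. Rpl22 stood at -0.56, -0.67 and -0.57, Rpl36a at -0.53, -0.63 and -0.58 and its paralogue Rpl36al at -0.46, -0.58 and -0.67. The retrocopy Rps27rt, which shares sequence with Rps27 so that UMIs may be assigned to either, was at -0.54, -0.59 and -0.72.

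Past 5 to 4, 20 members were lower in all 3 clusters, which is 76.9% of the 26 in cluster 0, 62.5% of the 32 in cluster 1 and 50% of the 40 in cluster 2. These 20 include Rpl26, Rpl30, Rpl32, Rpl34, Rpl37a, Rpl38, Rpl39, Rpl9, Rps15a and Rps25 beside those above. The clusters come from the same pair of libraries and so are no replicates of each other.

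Other members were level or higher in PyMT. In cluster 0 the highest were Rpl7l1 (0.31, interval 0.00 to 0.64), Rps19bp1 (0.28, -0.08 to 0.66) and Rpl15 (0.26, 0.18 to 0.35). Rpl7l1, a nucleolar relative of Rpl7, had only 106 and 372 UMIs, while Rpl15 was at 430 and 517 CPM. Rpl15 was lower in PyMT elsewhere, at -0.21 in cluster 1 and -0.23 in cluster 2. In cluster 1 the highest were Rpl39l (0.87, on 16 and 24 UMIs), Rpl23a (0.26, 0.15 to 0.38) and Rpl4 (0.21, 0.07 to 0.34). In cluster 2 they were Rpl39l (1.11, on 11 and 15 UMIs), Rpl7l1 (0.21) and Rpl4 (0.06), each with an interval that includes 0. Rps19bp1 was lowest in cluster 2, at 38.6 CPM in WT and 19.8 CPM in PyMT (-0.96, -1.51 to -0.45).

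The remaining proteins reported throughout were modestly lower or level. Rplp0 stood at -0.02, -0.13 and -0.24 in clusters 0, 1 and 2, Rplp1 at -0.11, -0.21 and -0.25, Rplp2 at -0.24, -0.17 and -0.21, and Rpsa at -0.07, -0.21 and -0.35. Rpl3 was at 0.07, -0.04 and -0.18, Rpl10 at -0.11, -0.39 and -0.43, Rpl7 at -0.31, -0.25 and -0.25, Rps4x at -0.30, -0.28 and -0.35 and Rpl9 at -0.40, -0.48 and -0.56. Rpl5, whose free form binds Mdm2, was at 0.22, 0.11 and -0.02.

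**Figure D3:**
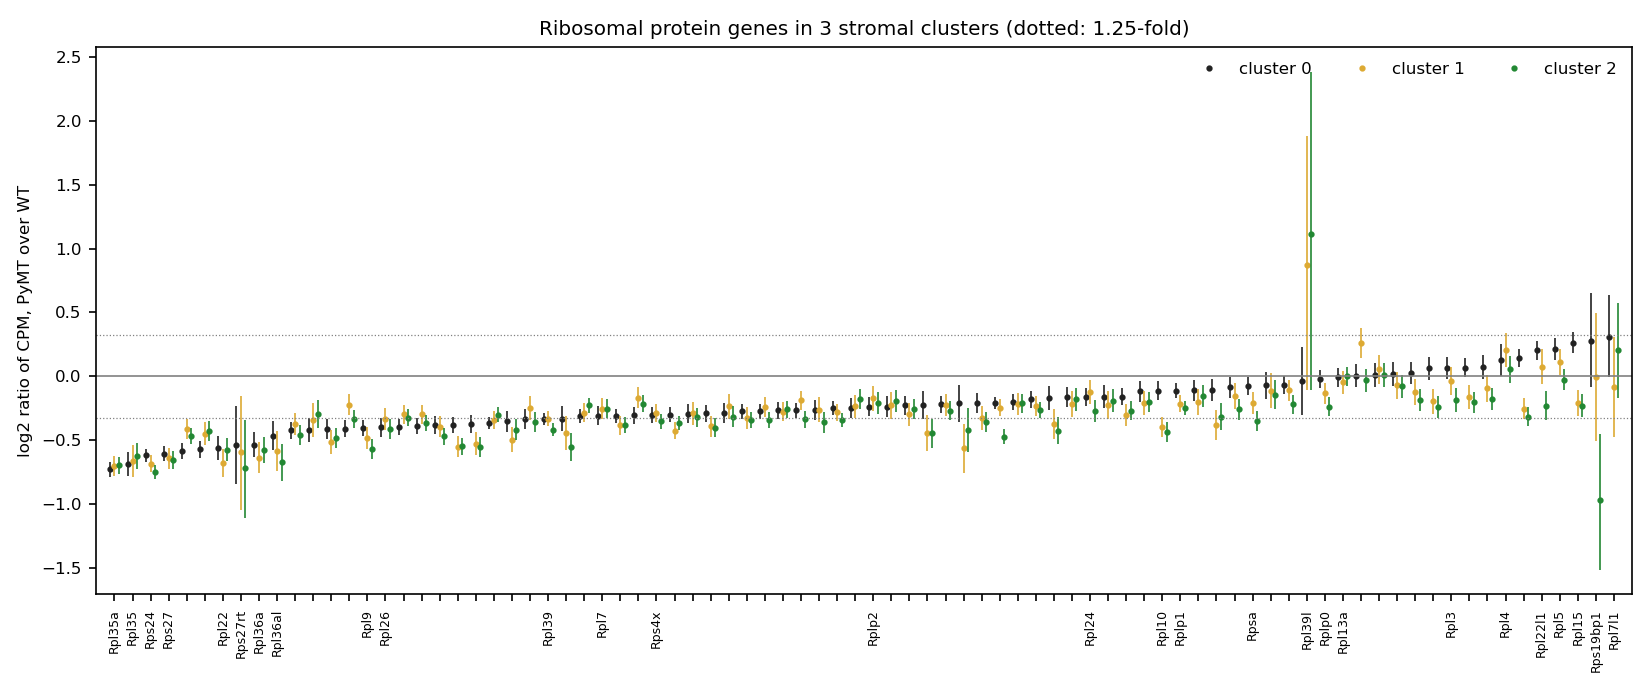
Log2 ratio of CPM, PyMT over WT library, for each member with 20 or more UMIs in clusters 0, 1 and 2, sorted by cluster 0, with 95% exact counting intervals and a selection of members labelled. Members at the left, from Rpl35a at -0.73 on, are below the dotted line at a ratio of 4 to 5 in all 3 clusters; Rpl39l and Rps19bp1 have wide bars.

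Short mRNAs were lower in the PyMT library whether or not they encode ribosomal proteins. Across 84 members the Spearman correlation between the length of the principal GENCODE M21 transcript and the log2 ratio was 0.342, 0.235 and 0.236 in clusters 0, 1 and 2. Among the other genes it was 0.138, 0.276 and 0.243. Genes share libraries and depth, so this is a description. The 20 members lower in all 3 clusters had a median length of 609 bases and the other 64 a median of 858 bases. In cluster 0 the 30 members under 700 bases had a median log2 ratio of -0.33, and 209 other genes of that length had -0.31. Members from 700 to under 1500 bases had -0.21 against -0.08 for 1458 other genes, and members of 1500 bases or more had -0.12 against 0.12 for 9805. In cluster 1 the medians for the shortest class were -0.33 and -0.32, and in cluster 2 they were -0.35 and -0.30. At the 2 longer classes members lay below other genes in all 3 clusters. The length used is that of the longest annotated principal transcript at a gene's best support level. It may exceed that of the mRNA present in these cells. Rps15a, at 5179 bases, and Rps20, at 3706 bases, fall in the longest class this way, so the correlations and the longer classes depend on this choice. The 78 mitochondrial ribosomal protein genes had medians of -0.13, -0.33 and -0.23. The part of mRNA length in the lower member share was not tested.

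**Figure D4:**
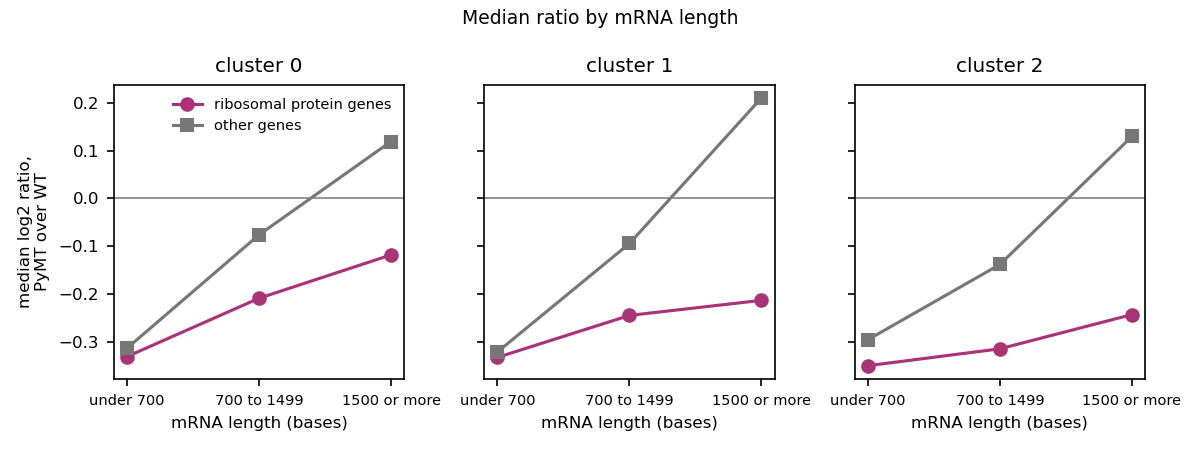
Median log2 ratio, PyMT over WT library, by length of the principal transcript for members and all other genes with 20 or more UMIs. In the shortest class the lines nearly meet (-0.33 and -0.31 in cluster 0); in the longer classes members lie lower.

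Other measures moved with genotype in these clusters. The 12 immediate-early and dissociation stress genes summed to 27572 CPM in WT and 50819 CPM in PyMT in cluster 0, to 10665 and 22737 in cluster 1 and to 13053 and 25334 in cluster 2. The 7 erythroid markers summed to 367 and 81.8 CPM in cluster 0, 10.5 and 7.80 in cluster 1 and 25.8 and 11.6 in cluster 2, with Alas2 and Slc4a1 at 0 in clusters 1 and 2 of both libraries. Median UMIs per cell were 3591 and 4422 in cluster 0, 4573 and 4173 in cluster 1 and 5655 and 5206 in cluster 2. The part of stress genes, erythroid RNA or depth in the lower member share was not tested. Scaling to UMIs of non-members left the medians at -0.25, -0.29 and -0.35.

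Among the neighbouring pathways, TOP-mRNA translation genes outside the rule had medians of -0.003, -0.07 and -0.06 in clusters 0, 1 and 2 (20 genes each). Eef1a1, the main elongation factor, was at 1292 and 1556 CPM in cluster 0 (0.27), and Tpt1, a classical TOP mRNA, at 1739 and 2119 CPM (0.29). Fau, which encodes the fusion protein that releases the ribosomal protein eS30 and lies outside the symbol rule, was lower in PyMT. It was at 582 and 486 CPM in cluster 0, with log2 ratios of -0.26, -0.29 and -0.29. Of 30 ribosome biogenesis genes in cluster 0, 16 were higher past 5 to 4 and 1 lower, with a median of 0.34. That median was 0.11 in cluster 1 and 0.03 in cluster 2. The mTORC1 and Myc list had medians of 0.29, 0.09 and 0.07, and the p53 list 0.19, 0.03 and 0.11.

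The balance of Rpl22 and its paralogue Rpl22l1 differed between clusters and between the libraries. As UMIs of a 3' assay count molecules, their counts were set side by side. Rpl22l1 gave 58.1% of the pair's UMIs in cluster 0 of WT (exact interval 56.4 to 59.8; 2007 and 1447 UMIs) and 70.2% in PyMT (69.2 to 71.1). In cluster 1 it gave 32.1% and 44.3%, and in cluster 2 35.9% and 41.6%. Osteolineage-like cluster 5 resembled cluster 0, at 61.6% and 68.3%. Cluster 3 stood at 40.5% and 57.4%, and cluster 4, with few UMIs, at 37.2% (27.0 to 48.3) and 39.5% (24.98 to 55.6). The share of Rpl22l1 was thus higher in PyMT in all 6 clusters, with overlapping intervals in cluster 4. In cluster 0 Rpl22 was at 391 CPM in WT and 265 CPM in PyMT and Rpl22l1 at 542 and 624 CPM; in cluster 2 both were lower in PyMT, Rpl22 at 960 and 646 CPM and Rpl22l1 at 538 and 459 CPM. Bulk read counts may also depend on mRNA length, so their CPM does not give the balance of the pair. Per length, bulk means over 8 libraries were 34.1 CPM per kb for Rpl22 and 75.5 for Rpl22l1. In bulk MSC libraries Rpl22 had a mean of 68.0 CPM in Ctrl and 71.9 in Py230 and Rpl22l1 of 44.1 and 39.2. Neither direction held without every library: the log2 change of Rpl22 was 0.08 and turned to -0.06 without Ctrl 4, and that of Rpl22l1 was -0.17 and turned to 0.05 without Ctrl 1, the library at 64.1 CPM where the other Ctrl libraries were at most 39.8.

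**Figure D5:**
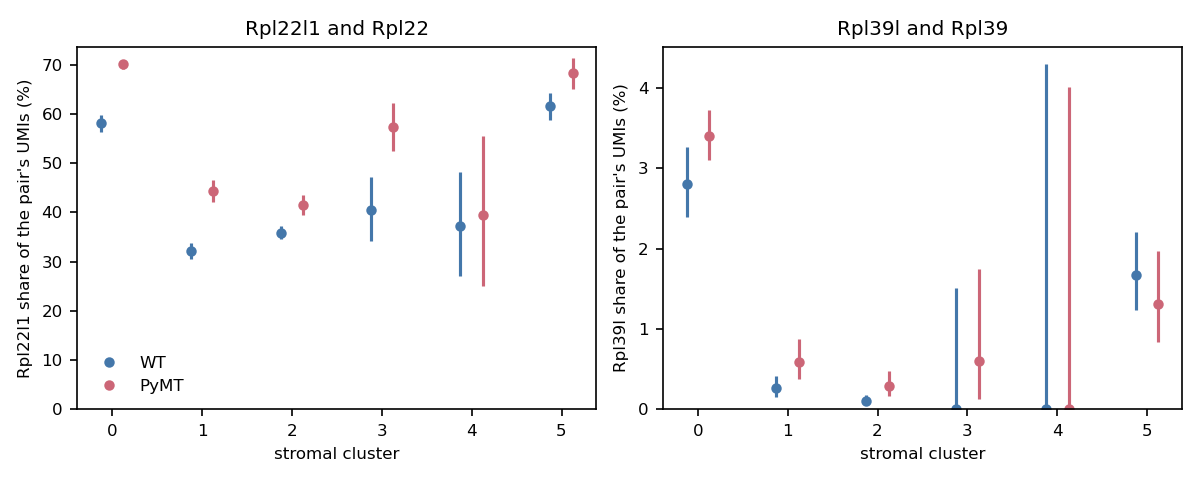
Share of Rpl22l1 in the UMIs of Rpl22l1 and Rpl22 (left) and of Rpl39l in those of Rpl39l and Rpl39 (right) by stromal cluster and library, with 95% exact intervals. Rpl22l1 gives most of its pair in clusters 0 and 5 of both libraries, and Rpl39l reaches 2.80% in WT and 3.41% in PyMT in cluster 0.

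The authors' metadata carry a ribosomal share for each stromal cell, which does not measure these genes. It equals, in all 2508 WT and 3563 PyMT cells, the share of 85 genes with rps or rpl inside the symbol, 78 of them mitochondrial ribosomal protein genes and 0 of them members. That share was 0.356% of UMIs in WT and 0.308% in PyMT, while the members took 7.99% and 5.27% over all deposited cells. The lower overall value in PyMT also holds a larger part of cluster 0 cells, 2242 of 3191 kept cells against 977 of 2190.

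In HSPC, Fau was tested over mouse sums. Fau was at 2894 and 2755 CPM in WT and 3105 and 2275 CPM in PyMT mice, a log2 change of -0.07 (SE 0.16, adjusted p 0.822 by edgeR). The PyMT mice lay above and below both WT mice. Without PyMT replicate 2, the library with the lowest depth (median 4257 UMIs per cell against 6644 to 7149), it was 0.13. Without PyMT replicate 1, it was -0.32 with an adjusted p of 0.0389 by edgeR. Each of these fits leaves 1 PyMT library against 2 WT libraries, so the spread comes from the WT pair, moderated across genes, and the lone PyMT library is assumed to vary like it. Of 11759 genes 1.4% were called between genotypes, 0.85% higher and 0.553% lower in PyMT, and 22.5% had an unadjusted p under 0.05. Of these lists, 0 of 18 TOP-mRNA genes were called, though 5 were called lower without PyMT replicate 1, where 3.28% of all genes were, and 3 higher without PyMT replicate 2, where 9.54% of all genes were. By DESeq2 1 was called higher, where 3.96% of all genes were called higher and 1.35% lower. Of 30 biogenesis genes 3 rose, namely Nop16 (0.67, adjusted p 0.0169), Nhp2 (0.53, adjusted p 0.0452) and Rrp12 (0.54, adjusted p 0.0453) by edgeR. This count was 5 without PyMT replicate 1, 19 without PyMT replicate 2 and 1 without WT replicate 2. Lineage markers moved with genotype too: megakaryocyte markers summed to 599 to 656 CPM in WT and 207 to 242 in PyMT, and neutrophil markers to 1695 to 4044 and 4748 to 6074 CPM. Elane+ cells, by the marker gate described below, numbered 201 of 3422 and 28 of 2210 in WT and 386 of 3602 and 348 of 5608 in PyMT. The part of these cell types in the HSPC results was not tested. Of 77 mitochondrial ribosomal protein genes 0 were called, with a median of 0.27 against -0.01 for all genes; by DESeq2 23 were called higher, against the 3.96% of all genes given above. By edgeR 29 were called higher without PyMT replicate 1, 47 without PyMT replicate 2 and 5 without WT replicate 1, where 6.03%, 9.54% and 2.91% of all genes were. With library totals in place of TMM the median of all genes shifted to -0.14, that of the biogenesis list to 0.10 and that of the mitochondrial list to 0.15.

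Across the authors' cell cycle phases, 18 of 30 biogenesis genes were called higher in S and 21 of 30 lower in G2M within the same 4 mice. In S against G1, 40.2% of 10757 genes were called by edgeR with mouse as a block, 21.5% higher and 18.8% lower, and 47.1% had an unadjusted p under 0.05; phase calls use expression of cycle genes, and cells in S and G2M are deeper (medians of 6622 to 10975 UMIs against 3592 to 5962 in G1). Of 30 biogenesis genes 18 rose and 0 fell in S, led by Nhp2 (0.39, adjusted p 3.38e-14) and nucleolin, Ncl (0.26, adjusted p 1.55e-11) by edgeR. Of 77 mitochondrial ribosomal protein genes 64 rose, Mrpl18 most clearly (0.53, adjusted p 2.57e-17 by edgeR), and Mrpl52 fell. Of 18 TOP-mRNA genes 4 rose, among them Nap1l1 (0.36, adjusted p 1.64e-12), and 6 fell, led by the initiation factor subunit gene Eif3f (-0.21, adjusted p 7.25e-09 by edgeR). With library totals in place of TMM, which moved the median of all genes from -0.02 to -0.13, 13 of the 18 were called lower, 12 biogenesis genes higher and 1 lower, and 36 mitochondrial ribosomal protein genes higher and 2 lower, where 13.0% of all genes were higher and 30.7% lower. DESeq2 and the fit with no low-count filter each called 3 of the 18 lower. Without 1 mouse it was 2 (without WT replicate 1), 3 (without WT replicate 2 or PyMT replicate 1) or 5.

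In G2M against G1, where 52.7% of genes were called, 25.1% higher and 27.6% lower, and 57.5% had an unadjusted p under 0.05, 21 of 30 biogenesis genes fell and 0 rose, led by Gnl3 (-0.46, adjusted p 5.1e-15 by edgeR) and Nolc1 (-0.48, adjusted p 2.36e-14). Of 18 TOP-mRNA genes 11 fell and 2 rose. The mitochondrial ribosomal protein genes went mostly the other way: of 77, 42 rose and 11 fell, with a median of 0.11 against -0.02 for all genes. With library totals, where 16.6% of all genes were called higher and 37.8% lower, 27 biogenesis and 15 TOP-mRNA genes were called lower. Fau fell slightly (-0.14, SE 0.02, adjusted p 9.04e-07 by edgeR): its mean over 4 mice was 2775 CPM in G1, 2673 in S and 2519 in G2M, and each mouse was lowest in G2M. Of 13 mTORC1 and Myc genes 6 fell, among them Myc itself (-0.52, adjusted p 2.64e-14 by edgeR). For genotype by phase, 0.39% of genes were called and 0 genes of these lists; at an unadjusted p of 0.05 the interaction marked 8.12% of genes. The 4 marker gates took cells that reached a UMI minimum for Procr, Dntt, Elane or Gata1 and were below it for the others. This minimum was higher for Elane than for the other genes. Cells that reached it for several of these genes were in no gate. Median UMIs per cell were 8994 to 13287 in the Elane gate and 3081.5 to 4796 in the Procr gate. The Elane gate of WT replicate 2 held 28 cells. The part of depth in the gate results was not tested. Across the gates, 69.3% of 9793 genes were called and 71.7% had an unadjusted p under 0.05. Of 18 TOP-mRNA genes 16 were called. Fau averaged 3046 CPM in Elane+ and 2526 CPM in Gata1+ cells (SD 347 and 356 over 4 mice; adjusted p 3.34e-09 over the gates by edgeR).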

How the data were processed

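Bulk RNA-seq covered 8 libraries, stromal single cells 2 and HSPC single cells 4. The deposited tables hold raw read counts per gene (bulk) and raw UMI counts per gene and cell. Per the submitters' processing notes, the tools were Trim Galore, STAR 2.5.3a and Cell Ranger 6.0.0 with build mm10; for the read counter, strand setting and annotation, the tool is not given in any source at hand. Deposited metadata give, per the file headers, a mitochondrial and a ribosomal fraction per stromal cell, a mitochondrial percent per HSPC cell, cluster numbers, and cell cycle scores with phases called by the authors.

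Members, gene lists and tests were chosen with earlier results of these data known. The HSPC table used here holds no symbol starting with Rpl or Rps, so member results in HSPC were not analysed here. Groups came from the genotype labels and titles. The labels do not say that bulk libraries came from separate animals, so p-values rest on the variation among these libraries, part of which may be technical. No 2 bulk libraries held identical counts.

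Bulk counts, and HSPC counts summed per mouse, per mouse and phase or per mouse and marker gate (mouse as a block), were tested with edgeR 4.0.16 (TMM, filterByExpr, robust quasi-likelihood, Benjamini-Hochberg over all genes tested) in R 4.3.3; DESeq2 1.42.0 was an alternative. The scripts were tested on simulated data. Stromal cells with 500 or more genes and under 10% mitochondrial UMIs were summed per library and cluster, and log2 ratios of CPM taken for genes with 20 or more UMIs over both libraries in clusters with 100 or more cells per library, with 95% exact (Clopper-Pearson) intervals. Doublets were not called. A few genes are not reported here. Transcript lengths came from GENCODE M21. Intervals cover counting error only. Named genes were the 3 members with the smallest p in each direction where fewer were called, the 3 highest and 3 lowest ratios per stromal cluster, a list of paralogues and stalk proteins, and up to 4 called genes each way per pathway list; Rpl5, Rpl24, Rpl26 and further members of the set lower in 3 clusters were named after their values were seen. Alternatives changed the scaling, the test, low-count filters, cell filters, depth, the replicate block and the libraries used.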

Additional observations from a re-analysis of the deposited data

Results flagged for a closer look

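In 4 of 54 groups of 4 bulk libraries tested, 1 library stood apart from the other 3 by Dixon's criterion, where chance gives about 1 in 20. Rpl22l1 was highest in Ctrl replicate 1, at 64.13 CPM with the next library at 39.76. Rps4l was highest in Py230 replicate 4, at 9.065 CPM with the next at 6.445. Rpl36al was lowest in Py230 replicate 1, at 4.312 CPM with the next at 13.14, and Rpl3 was lowest in one Py230 library, at 225 CPM with the next at 253.2.

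The stromal log2 ratios of PyMT over WT had both signs across clusters 0, 1 and 2 in 15 members, and in 3 of these the 95% counting intervals lay wholly above 0 in one cluster and wholly below 0 in another. Rpl15 was at 0.26 in cluster 0, -0.21 in cluster 1 and -0.23 in cluster 2. Rpl22l1 was at 0.20 in cluster 0 and -0.23 in cluster 2, and Rps2 at 0.14, -0.25 and -0.31 in clusters 0, 1 and 2. With 1 library per genotype, these differences between clusters were not tested.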

How the results depend on the processing

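In bulk, members called higher stayed at 0 under every alternative run, and members called lower became 1 (Rps4l) by DESeq2 (adjusted p 0.0286) and 1 with no low-count filter (adjusted p 0.00288 by edgeR). With library totals only, Rps27 was at 0.0017, Rpl36a at 0.038, Rpl10 at 0.013, Rpl7 at 0.049, Rpl9 at 0.022, Rplp2 at 0.038 and Rps19bp1 at 0.0013. With no low-count filter, Rpl3l was at -1.33e-05, Rps4x at -0.019, Rplp1 at -0.020 and Rpsa at -0.026. Same-numbered bulk libraries correlated at -0.39, -0.13, -0.20 and 0.015 in their deviations and were not treated as pairs; with the replicate block 0 members were called, 176 of all genes were called higher and 237 lower in place of 324 and 447, Rpl3l was at -0.075 and Rpl7 at 0.00036. Leaving out 1 bulk library turned the sign of 15 named members. The log2 change of Rpl22 ranged from -0.060 to 0.15, Rpl22l1 from -0.29 to 0.047, Rpl36a from -0.084 to 0.023, Rpl39l from -0.72 to 0.15, Rpl3l from -0.33 to 0.27. The log2 change of Rpl10 ranged from -0.14 to 0.049, Rpl7 from -0.10 to 0.040, Rpl7l1 from -0.025 to 0.17, Rps4x from -0.084 to 0.15, Rpl9 from -0.11 to 0.019. The log2 change of Rplp0 ranged from -0.044 to 0.22, Rplp1 from -0.085 to 0.16, Rplp2 from -0.13 to 0.081, Rpsa from -0.12 to 0.18, Rps19bp1 from -0.36 to 0.16.

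Planned results over HSPC members gave no value because the table held none. HSPC genotypes could not be compared in pairs because WT and PyMT mice share no pairing, while phases and marker gates were compared within each mouse. Between genotypes, translation genes called higher became 1 by DESeq2; leaving out 1 mouse gave 0 to 3 higher and 0 to 5 lower, and Fau from -0.32 to 0.13. In S against G1, genes called lower became 3 (DESeq2), 13 (library totals) and 3 (no low-count filter), and 2 to 5 with 1 mouse left out. Fau, not called in S in the main fit, was called lower with library totals (-0.16, adjusted p 1.77e-07 by edgeR). It was also called lower with cells thinned to 2000 UMIs (-0.14, adjusted p 0.000127 by edgeR). In G2M against G1, genes called higher became 1 with library totals and 1 to 2 with 1 mouse left out.

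Stromal medians kept their sign under every alternative run. In cluster 0, members past a ratio of 5 to 4 higher became 2 when thinned to 1500 UMIs and 2 by the mean of single cells, which also gave 16 lower. Those higher became 0 in cluster 1 with a minimum of 100 UMIs, and 0 in cluster 2 both thinned and with that minimum. With every deposited cell the member shares in clusters 0, 1 and 2 were 4.79%, 9.39% and 10.41% in WT and 4.11%, 7.51% and 8.22% in PyMT, and thinned 4.73%, 9.61% and 10.43% in WT and 4.05%, 8.13% and 8.50% in PyMT. The causes of these changes were not tested. Depth limits Rpl39l, Rpl7l1, Rps27rt and Rps19bp1 in the stroma.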
